A study of Lolium arundinaceum with 18 samples.

Results

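Nanoparticles of silicon (Si NPs) were compared directly with nanocrystals of cellulose (CNCs) in the leaves of tall fescue, a cool-season turf and forage grass, kept under drought. The comparison used 6 of the 18 leaf RNA-seq libraries of the series: 3 of DS_Si NPs plants, sprayed with Si NPs at 300 mg/L, and 3 of DS_CNCs plants, sprayed with CNCs at 100 mg/L. Plants of both groups were held at 35 to 45% of field capacity and sampled after 20 days. The other groups were DS (the same drought with no particle), and watered plants at 65 to 75% of field capacity without a particle (CK), with Si NPs or with CNCs, each with 3 libraries. The particle and its concentration changed together, so their parts cannot be told apart, and whole leaves were sequenced, so fewer cells of a type and less RNA per cell cannot be told apart either. The labels do not say whether the 3 libraries of a group came from separate pots, so p-values measure the spread between libraries. Reads were assembled without a genome into unigenes, the assembled transcript groups used in place of genes.

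Several processes run through the results. Jasmonates are hormones of wounding, defence and senescence. They are made from linolenic acid, which phospholipases release from chloroplast lipids, lipoxygenases oxidise, and 12-oxophytodienoate reductases carry further towards jasmonic acid. Phenylalanine ammonia-lyase opens the phenylpropanoid pathway to lignin and phenolic amides, while cutin and wax seal the epidermis against water loss. Antenna proteins hold the chlorophyll that harvests light, and chlorophyllase cleaves chlorophyll.

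The summed counts ranged from 16523554 to 23076268 per library. Photosynthesis transcripts were abundant in all 6 libraries, the antenna proteins together taking 54748 to 87002 transcripts-per-million (TPM) in DS_Si NPs and 37090 to 42765 in DS_CNCs. The DS_Si NPs libraries were the less uniform group. The median standard deviation of a unigene was 0.78 on the log2 scale within DS_Si NPs and 0.63 within DS_CNCs, and DS_Si NPs libraries 1 and 2 lay at opposite ends of the first principal component. DS_Si NPs library 2 had the fewest detected unigenes (71394, against 80129 to 84628 in the others) and the largest share of cytosolic ribosomal protein transcripts (32283 TPM, against 12920 to 18609). Levels below are counts-per-million (CPM) of the library size scaled by trimmed mean of M-values. On TPM the median unigene was 0.13 higher in DS_CNCs on the log2 scale, against -0.02 in the count model. Changes are therefore given on the count scale, and that median was not subtracted.

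No single unigene passed the direct test. Of 55979 unigenes tested with edgeR's quasi-likelihood model, 0 (0%) reached an adjusted p below 0.05 with a log2 difference above 2 in size, and 0 did so without the fold threshold. The lowest adjusted p was 0.188. At an unadjusted p below 0.05 there were 5163 unigenes, 3.89% of all tested higher with CNCs and 5.33% lower. DESeq2 on the same counts called 450 (167 higher, 283 lower), and limma-trend on TPM called 59 (47 higher, 12 lower). The 2 groups of 3 libraries did not overlap in CPM for 4.98% of unigenes in the higher direction and 4.66% in the lower. In TPM those shares were 7.20% and 2.99%. The unigenes with the lowest p, a named product and no overlap are therefore given as values that did not pass.

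The largest of these differences were in unigenes that were higher with Si NPs. Chlorophyllase-1 (DN7546_c0_g1) stood at 560, 377 and 1038 CPM in DS_Si NPs and at 65.7, 60.5 and 64.7 CPM in DS_CNCs, a log2 difference of -3.37 ± 0.53 (SE, n = 3 per group; edgeR adjusted p = 0.188). A chloroplast phospholipase A1-Igamma1-like unigene (DN3462_c0_g1), of the lipase family that frees fatty acids for jasmonate synthesis, stood at 269, 186 and 635 CPM against 32.1, 6.98 and 7.64 CPM. An ervatamin-B-like cysteine protease (DN1992_c0_g1) stood at 1534, 1564 and 3211 CPM against 104, 66.6 and 190 CPM. DS_Si NPs library 3 was the highest in all of these, and the absence of overlap was a condition of the choice. A small heat shock protein of the chloroplast (DN6654_c1_g1), a chaperone that binds unfolded proteins, had 35.4, 11.4 and 51.7 CPM against 0.815, 3.33 and 2.16 CPM. A NETWORKED 2C-like protein (DN7644_c0_g1), of a family that links actin to membranes, had 21.5, 32.7 and 8.91 CPM against 2.61, 3.22 and 1.25 CPM. The response regulator ARR9 (DN13468_c0_g1), a negative regulator of cytokinin signalling in Arabidopsis, had 32.4, 48.9 and 29.4 CPM against 12.4, 16.0 and 13.8 CPM. The other members of this set were a thioredoxin F of the chloroplast, a non-specific lipid transfer protein-like unigene, a keratin-associated protein-like unigene and a probable carboxylesterase, with log2 differences of -0.62 to -2.03.

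Differences in the other direction were smaller and more even between libraries. A putative salt-stress root protein (DN10071_c0_g1) had 176, 122 and 218 CPM in DS_Si NPs and 469, 336 and 415 CPM in DS_CNCs, a log2 difference of 1.24 ± 0.21 (edgeR adjusted p = 0.212). Probable allantoinase (DN10928_c0_g1), which recovers nitrogen from purines by way of allantoin, had 158, 88.7 and 136 CPM against 279, 288 and 355 CPM. A 12-oxophytodienoate reductase (DN7906_c0_g1) had 8.48, 7.83 and 5.32 CPM against 17.3, 43.7 and 29.2 CPM. The DS_CNCs libraries lay further apart for the reductase than for the other two, relative to their level. A class I homeodomain-leucine zipper protein (DN12837_c0_g1), of a transcription factor family known for drought and abscisic acid responses, had 62.1, 53.6 and 67.7 CPM against 95.0, 111 and 111 CPM. A peroxidase (DN4649_c0_g1), of the secreted class that acts in the cell wall, had 5.73, 7.02 and 7.47 CPM against 15.8, 13.2 and 22.0 CPM. A carbonyl reductase (DN19452_c0_g1) had 3.88, 3.37 and 4.90 CPM against 13.2, 11.2 and 12.5 CPM. The remaining 4, a fatty acid amide hydrolase, a beta-glucosidase, a centromere-associated protein E and a MYBAS2-like MYB factor, had log2 differences of 0.98 to 1.14.

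**Figure D1:**
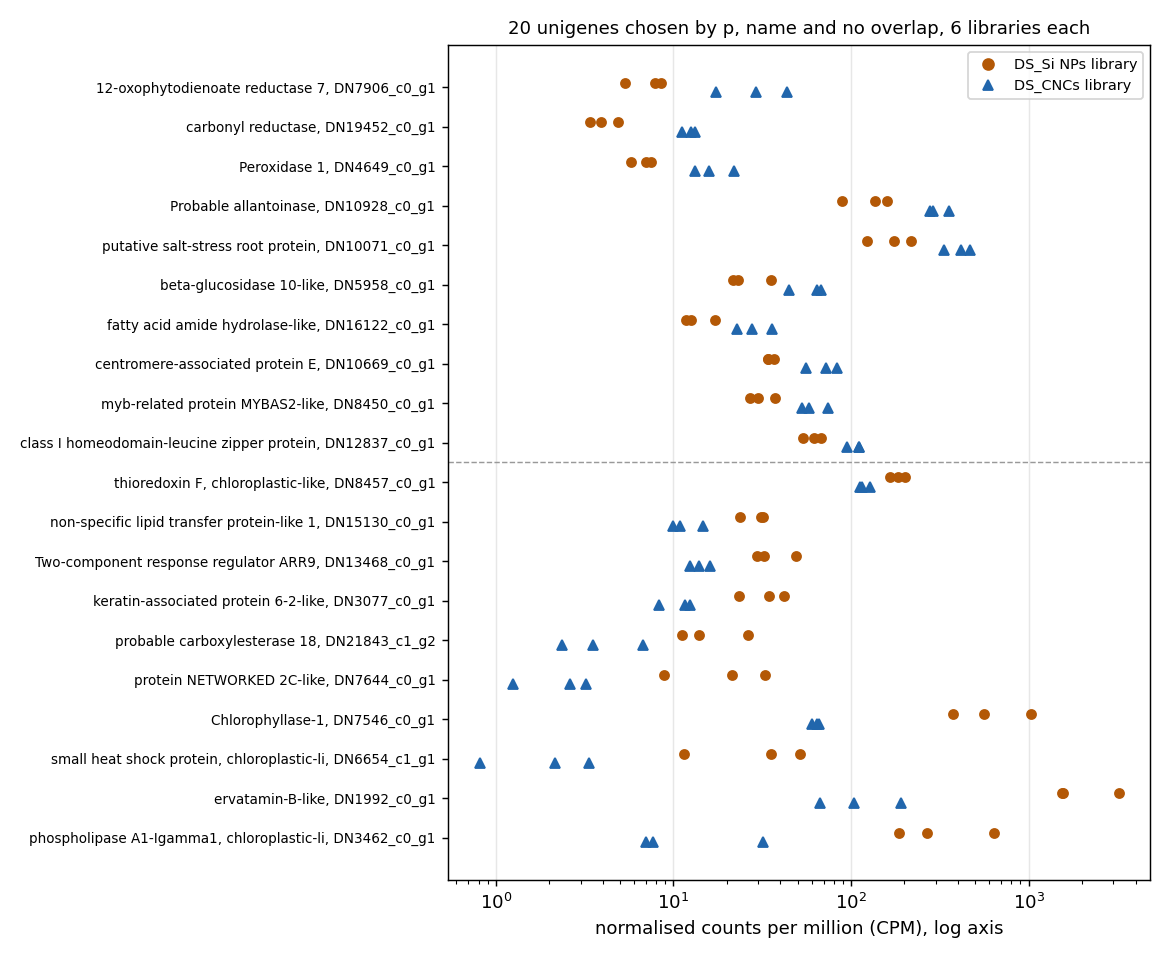
CPM (log axis) in each of the 6 libraries for the 20 unigenes with a named product, no overlap between groups and the lowest p in each direction; circles are DS_Si NPs and triangles DS_CNCs libraries. Below the dashed line all DS_CNCs libraries are lower, with phospholipase A1 at 6.98 to 32.1 against 186 to 635 CPM, and above it all are higher, by smaller distances; the separation itself was a condition of the choice.

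Summed by KEGG pathway, the counts gave calls where single unigenes did not. Of 131 pathways with at least 5 tested unigenes, 5 (3.82%) were lower with CNCs and 0 (0%) were higher, at an adjusted p below 0.05 in edgeR. At an unadjusted p below 0.05 there were 25. The 5 were linoleic acid metabolism, cutin, suberine and wax biosynthesis, stilbenoid, diarylheptanoid and gingerol biosynthesis, alpha-linolenic acid metabolism, and porphyrin and chlorophyll metabolism. In all 5 the groups did not overlap. The count of pathways depended on single libraries. It was 0 without DS_CNCs 1, DS_CNCs 2, DS_CNCs 3 or DS_Si NPs 1, 9 without DS_Si NPs 2 and 10 without DS_Si NPs 3. With limma-trend on summed TPM it was 0, without CK 3 it was 0, and with DESeq2 it was 7. With the replicate number added to the edgeR model as a block it was 0 (lowest adjusted p = 0.0575). A fit of the 6 libraries alone kept linoleic acid metabolism and the cutin pathway, and not the stilbenoid and alpha-linolenic acid pathways (both adjusted p = 0.0836) or the chlorophyll pathway (0.241). With DESeq2's size factors in edgeR the chlorophyll pathway did not pass (0.0819).

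Linoleic acid metabolism fell furthest with CNCs. Its summed level was 2513, 1462 and 3988 CPM in DS_Si NPs and 1035, 963 and 1077 CPM in DS_CNCs, 2.59-fold lower with CNCs (log2 difference -1.37 ± 0.30, edgeR adjusted p = 0.0365). All 3 DS_CNCs libraries were close together, and the DS_Si NPs libraries spread upwards from just above them. The pathway is made up largely of lipoxygenases. Its most abundant unigene, a chloroplast lipoxygenase (DN1237_c0_g1), had 1113, 381 and 2163 CPM against 257, 157 and 257 CPM, and made up 46.2% of the pathway's counts in DS_Si NPs and 22.2% in DS_CNCs. Without that unigene the pathway was still lower (log2 difference -0.84, adjusted p = 0.0297). Of the 46 tested members, 9 were lower in all DS_CNCs libraries and 1 was higher, with a median log2 difference of -0.61. A putative linoleate 9S-lipoxygenase (DN10058_c0_g1) stood at 194, 76.7 and 166 CPM against 9.45, 1.77 and 6.78 CPM. Leaving out 1 library left the pathway past the threshold in 2 of 6 cases, without DS_Si NPs 2 (adjusted p = 0.00261) and without DS_Si NPs 3 (0.0448), and short of it in the others (0.0528 to 0.181).

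Alpha-linolenic acid metabolism, the pathway that leads to jasmonate, shares the chloroplast lipoxygenases with the former and was 1.76-fold lower with CNCs. Its level was 3792, 2643 and 5730 CPM in DS_Si NPs and 2332, 2109 and 2462 CPM in DS_CNCs (log2 difference -0.82 ± 0.22, edgeR adjusted p = 0.0415). Without DN1237_c0_g1 it did not pass (log2 difference -0.45, adjusted p = 0.120), and of the 6 fits that left out a library only that without DS_Si NPs 2 passed (0.00308, against 0.0683 to 0.181 in fits without DS_Si NPs 1, DS_Si NPs 3 or a DS_CNCs library). Its members did not move as a block: of 111 tested, 9 were lower and 12 higher in all DS_CNCs libraries, and the median member lay at -0.02. Over all tested unigenes, 4.66% were lower and 4.98% higher without overlap. The unigene of linolenate hydroperoxide lyase (DN3725_c0_g1), which makes leaf aldehydes rather than jasmonate, had 252, 354 and 399 CPM against 173, 262 and 193 CPM, with overlap.

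Lipoxygenases and 12-oxophytodienoate reductases, taken as families of names, lay on opposite sides. Families were grouped by product name after the values were seen and are described without a test. Of 24 lipoxygenase unigenes with a mean of at least 1 CPM, 23 had a log2 difference below 0 and 8 were lower in all DS_CNCs libraries. Of 14 12-oxophytodienoate reductase unigenes at that level, 12 had a log2 difference above 0 and 4 were higher in all DS_CNCs libraries. Summed over all their unigenes, lipoxygenases stood at 2337, 1327 and 3908 CPM in DS_Si NPs and 946, 870 and 975 CPM in DS_CNCs. The reductases stood at 174, 110 and 181 CPM and at 220, 207 and 350 CPM. Neither family overlapped between the groups. The reductase unigene with the highest mean over the 6 libraries, DN1608_c0_g1, had 54.0, 32.2 and 40.5 CPM against 66.3, 59.5 and 74.2 CPM. Its name is a putative reductase 11. Of unigenes named reductase 7, DN19303_c0_g1 differed by 0.07 ± 0.23 and the less abundant DN7906_c0_g1 by 2.06 ± 0.43. The lipoxygenases also included linoleate 9S-lipoxygenases. The families thus mix enzymes of different names, and whether jasmonate steps differed was not tested. Members of such families share sequence, and the counting may have divided reads between near-identical unigenes. The wider list of jasmonate synthesis genes and TIFY repressors went both ways. Of 108 tested, 13 (12.0%) were lower and 10 (9.26%) higher without overlap in CPM, and 8 lower and 11 higher in TPM. Its summed CPM overlapped, at 6288, 5118 and 7895 against 7861, 3288 and 6873.

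**Figure D2:**
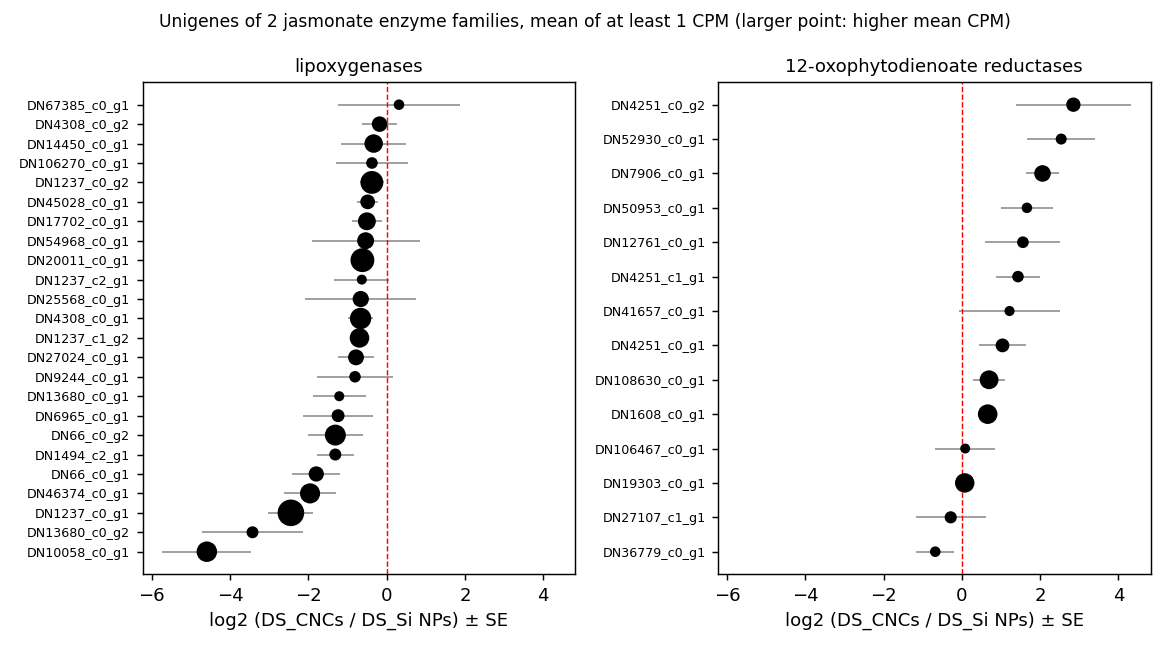
Log2 difference between DS_CNCs and DS_Si NPs with its standard error for each unigene of 2 enzyme families with a mean of at least 1 CPM; larger points have a higher mean CPM. On the lipoxygenase side 23 of 24 unigenes lie left of 0, and on the 12-oxophytodienoate reductase side 12 of 14 lie right of it.

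Cutin, suberine and wax biosynthesis was 2.03-fold lower with CNCs, at 1097, 1146 and 1747 CPM in DS_Si NPs and 654, 665 and 649 CPM in DS_CNCs (log2 difference -1.02 ± 0.25, edgeR adjusted p = 0.0415). The total was carried by DN4651_c0_g1, a putative calcium-binding EF-hand protein filed under this pathway, with 394, 471 and 1176 CPM against 86.7, 108 and 63.9 CPM. It made up 50.4% of the pathway's counts in DS_Si NPs and 13.0% in DS_CNCs, and without it the log2 difference was -0.19 (adjusted p = 0.345). The WSD1-like wax ester synthase DN9833_c0_g1 had 160, 179 and 140 CPM against 125, 112 and 145 CPM, with overlap. Of 34 tested members, 2 were lower in all DS_CNCs libraries and 0 higher, beside 4.66% and 4.98% of all tested unigenes. Of the 6 fits without a library, only that without DS_Si NPs 2 passed (adjusted p = 0.0263, against 0.0528 without DS_Si NPs 1, 0.0721 without DS_Si NPs 3 and up to 0.181 without a DS_CNCs library).

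The wider list of cuticle and lipid transfer genes had more members lower than higher. Of 147 tested, 20 (13.6%) were lower and 8 (5.44%) higher in all DS_CNCs libraries, with a median log2 difference of -0.48. Its abundant members were lipid transfer proteins, small secreted carriers of cuticle lipids. DN2691_c0_g1 had 525, 798 and 217 CPM against 186, 110 and 150 CPM. DN14527_c0_g1 had 432, 473 and 105.3 CPM against 104.6, 41.0 and 52.5 CPM. DS_Si NPs library 3, the highest library for the lipoxygenases, was the lowest of its group in both.

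Stilbenoid, diarylheptanoid and gingerol biosynthesis, a KEGG name that in grasses covers hydroxycinnamoyl transferases and cinnamate hydroxylases of phenylpropanoid metabolism, was 1.73-fold lower with CNCs. Its level was 625, 391 and 725 CPM against 363, 282 and 361 CPM (log2 difference -0.79 ± 0.20, edgeR adjusted p = 0.0415). Of 40 tested members, 8 were lower in all DS_CNCs libraries and 0 higher, with a median of -0.69. A hydroxyanthranilate hydroxycinnamoyltransferase (DN15364_c0_g1), an enzyme of the avenanthramide phenolic amides known from oat, had 207, 96.2 and 346 CPM against 52.4, 61.8 and 75.0 CPM. Without it the log2 difference was -0.42 (adjusted p = 0.0861). Of the fits without a library, only that without DS_Si NPs 2 passed (adjusted p = 0.00261, against 0.132 without DS_Si NPs 1, 0.0726 without DS_Si NPs 3 and 0.0683 to 0.181 without a DS_CNCs library).

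The entry enzymes of this metabolism lay on the same side. Of 114 tested phenylpropanoid and monolignol enzymes, 15 (13.2%) were lower and 1 (0.877%) higher in all DS_CNCs libraries, and the median was -1.06. All 45 tested phenylalanine ammonia-lyase unigenes had a log2 difference below 0, and 11 did not overlap. Their sum was 349, 94.4 and 694 CPM in DS_Si NPs and 121, 40.2 and 134 CPM in DS_CNCs, so that DS_Si NPs library 2 lay among the DS_CNCs libraries. DN2318_c1_g1 of this family had 98.4, 32.4 and 35.4 CPM against 16.7, 11.3 and 18.2 CPM. Cinnamoyl-CoA reductase DN11965_c0_g1, a lignin enzyme, was even across the groups, at 133, 156 and 145 CPM against 160, 134 and 153 CPM. Among class III peroxidases and laccases, which polymerise lignin, 8 of 55 (14.5%) were lower and 2 (3.64%) higher without overlap.

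Porphyrin and chlorophyll metabolism was 1.31-fold lower with CNCs, the smallest of the 5 differences, at 10359, 9999 and 8457 CPM against 7577, 6625 and 7800 CPM (log2 difference -0.39 ± 0.10, edgeR adjusted p = 0.0415). Single members of both synthesis and breakdown of chlorophyll were lower, but the median breakdown gene was not. Of 21 tested breakdown and senescence genes, 2 were lower and 0 higher in all DS_CNCs libraries, with a median log2 difference of 0.11. That list summed to 965, 711 and 1490 CPM against 471, 488 and 442 CPM, without overlap. In TPM its sums overlapped, at 371, 293 and 582 against 285, 314 and 253. Of 6 chlorophyllases, 4 had a log2 difference above 0 and 2 below. Together the chlorophyllases stood at 586, 408 and 1081 CPM against 103, 109 and 102 CPM. Of 21 tested synthesis genes, 2 were lower and 0 higher, with a median of -0.27. Glutamyl tRNA reductase (DN2590_c0_g1), the controlled first enzyme of tetrapyrrole synthesis, had 956, 824 and 546 CPM against 332, 406 and 434 CPM, and chlorophyllase-1, given above, was among the members without overlap. The most abundant member, magnesium-protoporphyrin IX monomethyl ester cyclase (DN15114_c0_g1), overlapped at 1490, 1873 and 1193 CPM against 1212, 926 and 1341 CPM. Of 91 tested members, 9 were lower in all DS_CNCs libraries and 1 higher. Of the fits without a library, only that without DS_Si NPs 3 passed (adjusted p = 0.0174, against 0.174 without DS_Si NPs 1, 0.0801 without DS_Si NPs 2 and 0.0683 to 0.215 without a DS_CNCs library).

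**Figure D3:**
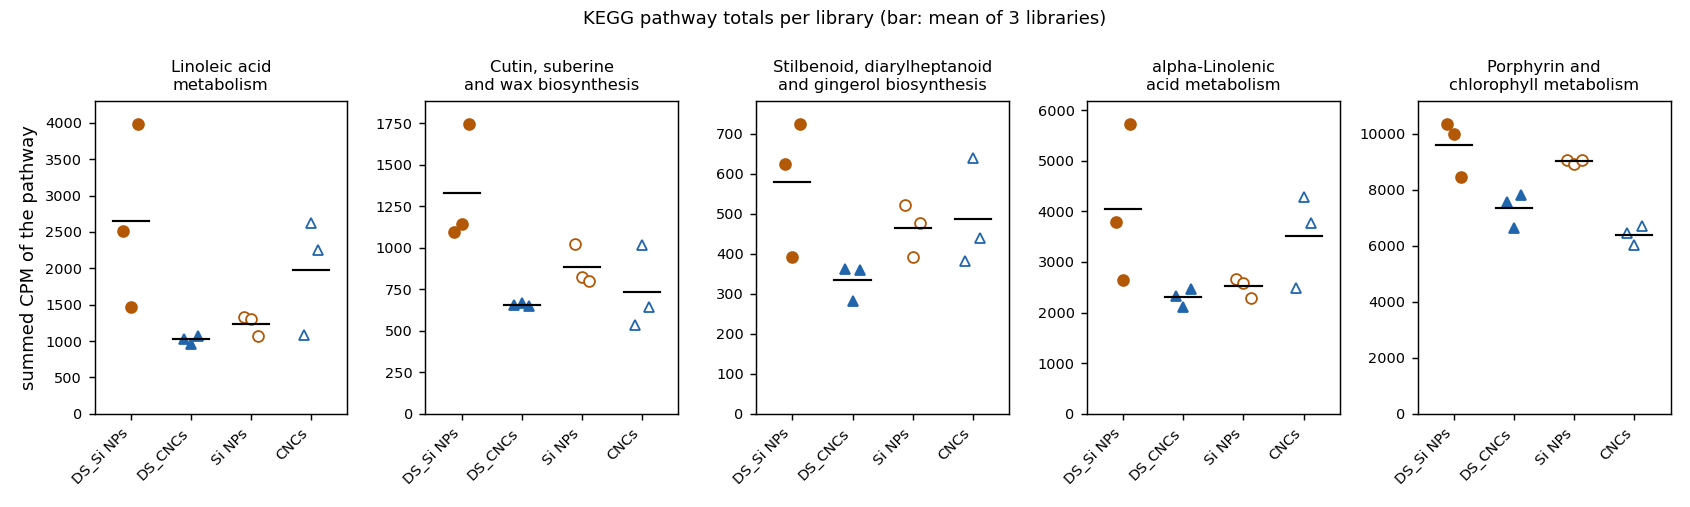
Summed CPM of the 5 KEGG pathways that were lower with CNCs, in each library (filled, drought; open, watered; circles, Si NPs; triangles, CNCs; bar, mean of 3). Under drought every DS_CNCs library lies below every DS_Si NPs library, and the DS_CNCs libraries lie close together.

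Light-harvesting genes had the highest share of non-overlapping members among lists with at least 20 tested. Of 64 tested antenna protein unigenes, 26 (40.6%) were lower and 0 higher in all DS_CNCs libraries, with a median log2 difference of -1.02, and the same count of 26 was lower in TPM. The median stayed between -1.21 and -0.67 when each of the 6 libraries was left out. DN126_c2_g1 had 6700, 4343 and 3030 CPM in DS_Si NPs and 1605, 1523 and 2643 CPM in DS_CNCs. DN9467_c1_g1 had 896, 469 and 520 CPM against 176, 301 and 291 CPM. The abundant antenna protein DN2319_c0_g1 overlapped, at 9542, 8963 and 7511 CPM against 6360, 7676 and 7773 CPM. The KEGG pathway of antenna proteins did not pass (log2 difference -0.67 ± 0.22, edgeR adjusted p = 0.101).

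Other chloroplast lists also had more members lower than higher, with lower shares. Of 57 photosystem and electron transport subunits, 6 (10.5%) were lower and 2 (3.51%) higher without overlap, and of 102 plastid-type ribosomal proteins 14 (13.7%) were lower and 2 (1.96%) higher. Rubisco activase (DN2967_c0_g1), which keeps the carbon-fixing enzyme active, had 7865, 10300 and 8347 CPM against 5550, 5374 and 6652 CPM. The Rubisco small subunit (DN11010_c0_g1) had 52072, 54666 and 25506 CPM against 28114, 23934 and 33635 CPM, so DS_Si NPs library 3 lay among the DS_CNCs libraries. Cytosolic ribosomal proteins had 1 of 169 members lower without overlap and 0 higher.

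Some chaperone unigenes had lower values with CNCs, although none was called. Of 33 tested small heat shock protein entries, a list that also took in a stromal HSP70, 9 (27.3%) were lower and 0 higher in all DS_CNCs libraries, with a median of -1.37. DN21926_c0_g1, of class IV, had 22.2, 8.10 and 2.93 CPM against 1.51, 1.44 and 1.44 CPM. Among the HSP70, HSP90, HSP101 and BiP chaperones, 13 of 107 (12.1%) were lower and 0 higher in CPM, and 6 were lower in TPM. The summed CPM of that list overlapped, at 2618, 3385 and 3917 against 2540, 2161 and 2938. The small heat shock proteins did not overlap in summed CPM, at 1187, 1535 and 1388 against 978, 742 and 1163. In summed TPM they did overlap, at 649, 681 and 1062 against 606, 468 and 717. Chloroplast HSP90 (DN1630_c1_g1) had 177, 191 and 224 CPM against 128, 97.1 and 125 CPM. The heat stress transcription factors, which drive these genes, had 2 of 43 on each side, near the share of all unigenes. Late embryogenesis abundant proteins, dehydrins and cold-regulated proteins, which protect drying cells, had 3 of 32 (9.38%) lower and 0 higher.

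Cell wall loosening genes and water channels had more members lower than higher without overlap. Of 66 expansin, xyloglucan and pectin genes, 15 (22.7%) were lower and 1 (1.52%) higher without overlap. Beta expansin DN10151_c0_g1 had 110, 242 and 102 CPM against 75.8, 91.5 and 70.5 CPM, and Expansin-A4 (DN38875_c0_g1) had 6.59, 24.2 and 5.68 CPM against 2.81, 1.55 and 1.06 CPM. Of 40 aquaporins and silicon transporters, 6 (15%) were lower and 1 (2.5%) higher, beside 4.66% and 4.98% of all tested unigenes. The tonoplast aquaporin TIP2;1 (DN1366_c0_g1) had 86.8, 68.1 and 93.1 CPM against 25.1, 30.7 and 33.4 CPM. NIP2-2 (DN13988_c0_g1), of the subfamily that in rice carries silicic acid, had 63.2, 33.9 and 42.5 CPM against 16.5, 23.7 and 19.7 CPM. The plasma membrane aquaporin DN916_c0_g1, the most abundant unigene of that list, overlapped at 790, 1250 and 895 CPM against 779, 755 and 801 CPM. Nitrate, phosphate, potassium and ammonium transporters had 13 of 187 lower and 7 higher in CPM with a median of 0.00, and 6 lower and 18 higher in TPM, and nitrogen assimilation genes had 1 of 21 on each side. Single unigenes of these lists went both ways. A nitrate transporter 1.3-like unigene (DN2451_c0_g1) had 47.6, 59.3 and 70.5 CPM against 13.3, 18.0 and 21.9 CPM, and nitrate reductase (DN11334_c0_g1) had 133, 143 and 207 CPM against 60.8, 85.8 and 43.5 CPM. The Gene Ontology total of low-affinity nitrate transporters, led by Nitrate transporter 1.7 (DN16438_c0_g1), lay in the other direction and did not pass (log2 difference 0.55 ± 0.14, edgeR adjusted p = 0.117).

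The defence lists are given by class, and the difference between classes was not tested. Among pathogenesis-related proteins, chitinases and glucanases, 8 of 95 (8.42%) were lower and 2 (2.11%) higher without overlap. Thionin BTH7 (DN867_c0_g1), an antimicrobial peptide of leaves, had 1024, 1780 and 2370 CPM against 151, 443 and 532 CPM. Among NBS-LRR disease resistance proteins, the intracellular immune receptors, 35 of 449 (7.80%) were higher and 10 (2.23%) lower. Wall-associated receptor kinases had 8 of 72 (11.1%) higher and 1 (1.39%) lower, and their median of 0.30 ranged from -0.01 to 0.50 as single libraries were left out, crossing 0.

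Auxin genes held the highest share in the higher direction among lists of that size. Of 135 tested, 19 (14.1%) were higher and 5 (3.70%) lower in all DS_CNCs libraries, with a median log2 difference of 0.14. IAA17 (DN606_c0_g1), one of the Aux/IAA repressors that auxin itself induces, had 495, 491 and 407 CPM in DS_Si NPs and 668, 519 and 596 CPM in DS_CNCs. IAA16 (DN15403_c0_g1) had 46.0, 37.3 and 37.7 CPM against 69.9, 55.7 and 102 CPM. Calcium sensors had 11 of 160 (6.88%) higher and 2 (1.25%) lower. Proline, trehalose, raffinose and betaine genes had 9 of 66 (13.6%) higher and 4 (6.06%) lower. Iron, zinc and metal handling genes had 6 of 113 (5.31%) higher and 3 (2.65%) lower, near or below the shares of all unigenes. A metallothionein (DN545_c0_g1), a metal-binding protein, had 597, 809 and 1067 CPM against 1616, 1074 and 1412 CPM.

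Few antioxidant genes separated the particles. Of 47 ascorbate peroxidase, superoxide dismutase, catalase and glutathione peroxidase unigenes, 1 was lower and 0 were higher without overlap, with a median of -0.02. Catalase isozyme 2 (DN4808_c0_g1) had 949, 760 and 1577 CPM against 985, 1065 and 1232 CPM. Flavonoid and anthocyanin enzymes (4 of 82 higher, 2 lower), starch genes (0 and 2 of 55) and sugar transporters (1 and 2 of 69) lay near or below the shares of all unigenes. Abscisic acid genes had 5 of 137 higher and 10 lower in CPM, with a median of -0.08, and 11 higher and 5 lower in TPM, the scale on which all unigenes shifted the same way. Zeaxanthin epoxidase (DN8327_c0_g1), which begins abscisic acid synthesis, had 151, 161 and 283 CPM against 115, 126 and 108 CPM.

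**Figure D4:**
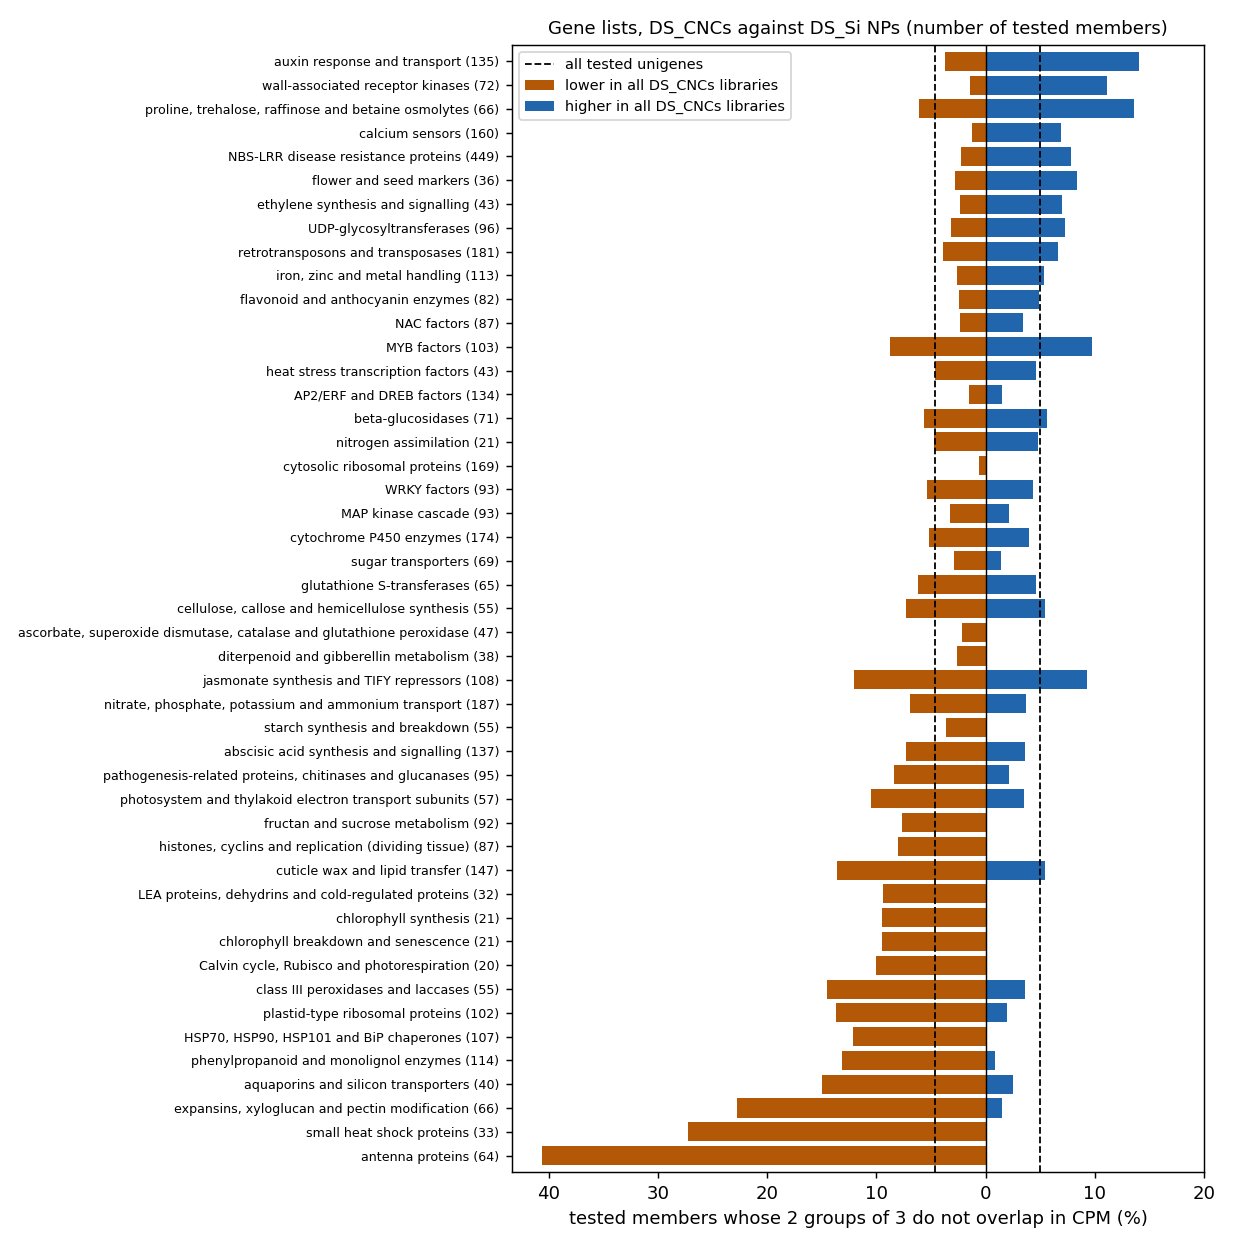
Share of tested members of each gene list whose 2 groups of 3 libraries did not overlap in CPM, to the left for members lower in all DS_CNCs libraries and to the right for members higher; dashed lines are the shares over all tested unigenes (4.66% and 4.98%), and numbers of tested members stand in brackets. Antenna proteins reach 40.6% on the left, and auxin genes 14.1% on the right.

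Marker lists of other tissues were mostly alike. Guard cell markers summed to 19.0 to 24.1 TPM in DS_Si NPs and 13.7 to 24.0 in DS_CNCs, and vascular markers to 45.2 to 67.2 and 50.5 to 74.7 TPM. Dividing-tissue genes summed to 5318 to 6250 and 4362 to 6324 TPM. Flower and seed markers summed to 367 to 377 against 386 to 438 TPM, but overlapped in CPM, at 455 to 542 against 446 to 483. The sum over the 4 unigenes with root or below-ground names differed, at 109 to 162 TPM in DS_Si NPs and 15.5 to 47.6 in DS_CNCs. Of these 4, 1 was lower and 1 higher in all DS_CNCs libraries in CPM. That sum came mostly from a lectin (DN2378_c0_g1) whose database match is named root-specific, at 62.6, 87.3 and 113 CPM against 10.6, 4.32 and 12.3 CPM. Single expansins, aquaporins and a nitrate transporter described above were lower with CNCs too. Within DS_Si NPs, however, the expansins and aquaporins had another order of libraries than the lectin. A link between them was not tested. Insect or mite entries summed to 115 TPM in DS_Si NPs library 1, to 5.13 in DS_CNCs library 1, to 42.1 in DS_CNCs library 3 and to 0 in the others, with insect cuticle proteins at 52.4 CPM (DN1673_c0_g1) and 23.6 CPM (DN7229_c0_g2) in DS_Si NPs library 1 alone.

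Gene Ontology totals passed in both directions. Of 2416 terms, 6 (0.248%) were higher and 5 (0.207%) lower with CNCs in edgeR, and 357 had an unadjusted p below 0.05. With the size factors of DESeq2 in edgeR the split was 5 higher and 2 lower, and with DESeq2 itself 17 and 34. Without DS_CNCs 1 or DS_Si NPs 1 no term passed. Without DS_CNCs 2, DS_CNCs 3, DS_Si NPs 2 or DS_Si NPs 3 the counts were 4, 5, 5 and 51.

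The lower terms named small enzyme and carrier families. Guiding stereospecific synthesis activity, the term of dirigent proteins that steer lignan coupling, was at 744, 571 and 887 CPM in DS_Si NPs and 219, 193 and 268 CPM in DS_CNCs (log2 difference -1.70 ± 0.29, edgeR adjusted p = 0.0221). Its leading unigene (DN2509_c0_g1), which has no named product, had 342, 95.6 and 630 CPM against 35.7, 12.0 and 62.9 CPM, and without it the term did not pass (adjusted p = 0.113). Dirigent protein 21-like DN1221_c0_g1 had 60.4, 79.3 and 50.1 CPM against 35.8, 26.7 and 35.4 CPM. Galactinol-sucrose galactosyltransferase activity, which makes raffinose, was lower by a log2 difference of -0.80 ± 0.16 (adjusted p = 0.0481). It was at 123, 154 and 131 CPM against 80.3, 68.9 and 85.3 CPM. Without its leading unigene it did not pass (adjusted p = 0.0565). Trans-cinnamate 4-monooxygenase activity, the enzyme after phenylalanine ammonia-lyase, was at 60.8, 51.8 and 46.0 CPM against 27.7, 28.2 and 26.3 CPM (adjusted p = 0.0481). Of its DS_Si NPs counts, 92.9% were 1 unigene (DN2000_c0_g1), and without it the term did not pass (adjusted p = 0.162). Symporter activity was lower by -0.48 ± 0.09 (adjusted p = 0.0316), and its leading unigenes were nitrate and peptide transporters. Inflorescence morphogenesis was lower by -0.98 ± 0.20 (adjusted p = 0.0481), and its members here were ERECTA receptor kinases and NAC factors of the leaf.

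None of the higher terms passed without its leading unigene. The salt-stress root protein DN10071_c0_g1 made up 71.3% of the DS_Si NPs counts and 82.8% of the DS_CNCs counts of the term for binding of the membrane lipid PI(4,5)P2, which was at 248, 192 and 286 CPM against 558, 402 and 512 CPM (log2 difference 1.02 ± 0.16, edgeR adjusted p = 0.0147). The same unigene led the terms for PI(3,5)P2 binding, response to iron ion and response to salt stress. Without the leading unigene none of these 4 passed (adjusted p = 0.474 to 0.889), and the log2 difference of response to salt stress turned from 0.31 to -0.04. Cellular response to nitrogen starvation was at 554, 525 and 620 CPM against 804, 676 and 824 CPM (log2 difference 0.44 ± 0.09, adjusted p = 0.0481). Allantoinase led it, and without that unigene the log2 difference was 0.07 (adjusted p = 0.766). Mitotic spindle was at 127, 124 and 141 CPM against 191, 170 and 183 CPM (log2 difference 0.47 ± 0.09, adjusted p = 0.0481). Its leading unigene was a flowering-promoting factor-like protein (DN2800_c0_g1), with 6.44, 12.5 and 39.4 CPM against 76.8, 49.0 and 54.9 CPM, and without it the log2 difference was 0.12 (adjusted p = 0.696).

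Each particle was also set against DS, the droughted leaves with no particle. Both comparisons share the DS libraries, so their values are given side by side only. Of 131 pathways, 21.4% passed with Si NPs and 29% with CNCs, and of all unigenes 3.39% and 5.8% were called. Linoleic acid metabolism differed from DS by -0.58 ± 0.30 on the log2 scale with Si NPs (edgeR adjusted p = 0.161) and by -1.95 ± 0.31 with CNCs (0.000202). Alpha-linolenic acid metabolism differed by -0.54 ± 0.22 (0.0823) and -1.36 ± 0.22 (0.000202). Cutin, suberine and wax biosynthesis differed by -0.35 ± 0.25 (0.314) and -1.37 ± 0.26 (0.000683). Porphyrin and chlorophyll metabolism differed by 0.12 ± 0.10 (0.386) and -0.26 ± 0.10 (0.0627), on opposite sides of DS. Chlorophyllase-1 (DN7546_c0_g1) differed by -1.49 (adjusted p = 0.0812) and -4.86 (0.000801), and the salt-stress root protein (DN10071_c0_g1) by 0.81 (0.0371) and 2.05 (0.000587).

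The same pair of particles was compared in watered leaves to ask whether the difference belonged to drought. In a test of the interaction, 0 of 55979 unigenes (0%) were called by edgeR, with 5515 at an unadjusted p below 0.05, 528 called by DESeq2 and 39 by limma-trend on TPM. Of the 131 KEGG pathways, 5 (3.82%) passed. Linoleic acid metabolism stood at 1326, 1301 and 1065 CPM in watered Si NPs and at 1081, 2618 and 2251 CPM in watered CNCs, a log2 difference of 0.69 ± 0.30 there, so the interaction was -2.06 ± 0.42 (edgeR adjusted p = 0.0148). For alpha-linolenic acid metabolism it was -1.30 ± 0.31 (0.0177). For the chlorophyll pathway, the difference between the particles did not change detectably with water. The pathway was lower with CNCs in watered leaves too (log2 difference -0.50 ± 0.10, adjusted p = 0.00204), with an interaction of 0.11 ± 0.15 (0.718). Thiamine, cyanoamino acid and lipoic acid metabolism passed in the other direction, with interactions of 0.66, 0.66 and 0.64. These 3 were lower with CNCs in watered leaves, as were 36.6% of all pathways there, with log2 differences of -0.50, -0.68 and -0.65, and in droughted leaves their differences were 0.16, -0.03 and -0.01. The beta-glucosidase DN6784_c0_g1 of the cyanoamino acid pathway, an enzyme class that frees glucose from stored glycosides, had 1195, 946 and 1920 CPM in watered Si NPs and 452, 348 and 428 CPM in watered CNCs. Under drought it had 134, 102 and 360 CPM with Si NPs and 239, 390 and 914 CPM with CNCs. The number of pathways passing ranged from 0, without CNCs 2, to 14, without DS_Si NPs 2, as single libraries were left out.

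The 18 unigenes that the study listed from these samples were read as well, which makes them no independent evidence. None passed between the particles in edgeR, and the lowest adjusted p was 0.349, for the receptor kinase ERECTA (DN1598_c0_g1), which shapes stomata and stems. It had 35.9, 50.6 and 15.4 CPM in DS_Si NPs and 16.5, 16.1 and 10.1 CPM in DS_CNCs, with overlap. APX1 (DN9236_c0_g1), an ascorbate peroxidase, had 79.4, 91.6 and 85.8 CPM against 50.2, 35.0 and 80.7 CPM. The light-harvesting protein CAB-M9 (DN41235_c0_g2) had 69.3, 55.6 and 16.1 CPM against 39.4, 20.5 and 47.4 CPM. PIP2-7 (DN2790_c1_g1), a plasma membrane aquaporin, had 12.3, 12.9 and 11.3 CPM against 17.4, 8.59 and 4.42 CPM. The silicon efflux transporter LSI2 (DN20900_c0_g1) was near the limit of detection, with 12 counts in all DS_Si NPs libraries and 1 in all DS_CNCs libraries, a ratio of 0.0692 with an interval of 0.00162 to 0.468. Intervals of such ratios pool the libraries and cover counting error only, not the spread between libraries. Glutathione S-transferase GST3 (DN113464_c0_g1), a detoxifying enzyme, had 1 count in all DS_Si NPs libraries and 91 in all DS_CNCs libraries, a ratio of 75.6 with a counting interval of 13.2 to 3018. Its CPM was 2.40, 1.66 and 0.0961 in the DS_CNCs libraries, so library 3 was near the DS_Si NPs level of 0, 0 and 0.0598. DHAR2 (DN121132_c0_g1) had 3 counts in each group. Of the 18, GST3 alone did not overlap between the groups in CPM. Its direction in these counts was opposite to that of the study, which, using TPM, reported a larger rise over DS with Si NPs than with CNCs. The reason was not tested.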

How the data were processed

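Read trimming by the authors used Cutadapt, quality control FastQC, assembly Trinity and quantification Salmon. The estimated counts were computed by the authors with Salmon and were rounded here, as 452055 of 1974312 values were not whole. The TPM values were deposited by the authors, scaled for length and library size. Of 109684 unigenes, 42440 have a description and 30112 a named product, on which the lists mainly rest. The KEGG pathways rest on 12280 unigenes and the Gene Ontology terms on 29470.

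Counts were filtered with filterByExpr, scaled by TMM and fitted in edgeR 4.0.16 (R 4.3.3) with 6 group means. Calls required a log2 difference above 2 in size and a p, adjusted after Benjamini and Hochberg over all unigenes, below 0.05. Counts summed over a KEGG pathway or Gene Ontology term with at least 5 tested unigenes were fitted alike, without a fold threshold. DESeq2 1.42.0 and limma 3.58.1 (log2 of TPM plus 0.5) were alternatives. An exact permutation test of 3 against 3 cannot give a p below 0.1.

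Named unigenes were the 10 in each direction with the lowest p, a product name, at least 5 TPM and no overlap in TPM, then for each list its 3 most abundant members and 2 of lowest p, the 3 most abundant of each passing term, and the study's own list. Other unigenes were chosen after their values were seen. The comparison, members and lists were chosen with earlier results of these data known.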

Additional observations from a re-analysis of the deposited data

Results flagged for a closer look

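The difference between the particles itself differed between droughted and watered leaves in 5 KEGG pathways, by the interaction term of the edgeR fit to summed counts. It was -2.06 ± 0.42 on the log2 scale for linoleic acid metabolism (adjusted p = 0.0148) and -1.30 ± 0.31 for alpha-linolenic acid metabolism (0.0177), the lipoxygenase pathways, which were lower with CNCs under drought. It was 0.66 ± 0.14 for thiamine metabolism (0.0148), whose most abundant unigene is a thiamine thiazole synthase, 0.66 ± 0.15 for cyanoamino acid metabolism (0.0177) and 0.64 ± 0.16 for lipoic acid metabolism (0.0200), all of which were lower with CNCs in watered leaves. As 13 libraries were left out in turn, these passed in 12, 11, 12, 11 and 7 fits in the order given. Groups of 3 libraries were not searched for single outlying libraries.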

How the results depend on the processing

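Unigene calls between the particles numbered 0 in the main fit, 450 with DESeq2, 59 with limma-trend on TPM and 0 to 2 as each library was left out. Calls in the interaction numbered 528 with DESeq2 and 39 with limma-trend, and 0 in every fit without a library. Passing KEGG pathways numbered 5, and 0 with the replicate block, 2 in a fit of the 6 libraries alone, 3 without each pathway's most abundant unigene, 0 with limma-trend on TPM, and 0 to 10 as libraries were left out. Passing Gene Ontology terms numbered 11, and 7 with DESeq2's size factors, 2 with the replicate block, 0 in the 6 libraries alone, 7 with limma-trend, 6 for terms of at least 10 unigenes, 51 with DESeq2, and 0 to 51 as libraries were left out. Passing pathways in the interaction numbered 5, and 3 without the most abundant unigene, 12 with DESeq2, and 0 to 14 as libraries were left out. Leaving out CK replicate 3, chosen after seeing the data, left 0 pathways and 3 terms in the direct comparison and 5 pathways in the interaction. Without its leading unigene, the term for response to salt stress turned to a log2 difference of -0.0388. The causes were not tested. None of the 20 unigenes drawn in the plot of CPM, which were chosen for groups without overlap, nor the 5 pathways, reversed in any alternative. Over all unigenes, same-numbered DS_Si NPs and DS_CNCs libraries did not deviate together (correlations of -0.08, 0.10 and 0.03), so the numbers were not taken as pairs. In some sets the order of the libraries was the same in both groups. These were the sums of lipoxygenases, phenylalanine ammonia-lyases, WRKY and NAC factors and ethylene genes. Whether the numbers mark a shared condition in such sets was not tested. The median standard error over unigenes was 0.78 on the log2 scale, and that of abundant unigenes could be much smaller (0.21 for DN10071_c0_g1).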

Other observations

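Stress-related transcription factors overlapped between the particles and differed between libraries. WRKY factors summed to 1599, 654 and 2910 TPM in the DS_Si NPs libraries and 1860, 748 and 4588 TPM in the DS_CNCs libraries. NAC factors followed the same order, at 933, 363 and 1559 TPM and 1273, 594 and 2704 TPM, as did ethylene synthesis and signalling genes, at 1215, 515 and 1638 TPM and 1222, 661 and 2080 TPM. AP2/ERF and DREB factors summed to 2220, 1340 and 2045 TPM and 2746, 1662 and 5701 TPM. A WRKY unigene (DN4637_c1_g1) had 279, 37.0 and 371 CPM against 233, 30.2 and 767 CPM, and an ethylene-responsive factor (DN1428_c0_g1) 55.1, 15.7 and 48.4 CPM against 75.0, 28.3 and 436 CPM. The ethylene-forming enzyme ACC oxidase (DN1941_c0_g1) had 526, 126 and 1096 CPM against 496, 102 and 1438 CPM. Library 2 was the lowest of its group in all of these and DS_CNCs library 3 the highest.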
